A study of Mus musculus with 6 samples.

Results

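Small RNA was sequenced from mature sperm of the cauda epididymis, where sperm are stored after they have left the testis. The mice were 8-week-old C57BL/6 males. There were 3 libraries from stress-induced depressed mice and 3 from normal mice, called stress and normal below. The labels do not say how the stress was applied, and they name no transgene or drug. Whether each replicate is a separate animal, and whether animals were pooled, is not stated. The p-values therefore speak only of the spread between these libraries, which may be technical.

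The microRNAs (miRNAs) described here are those best known from white blood cells and inflammation. They were chosen by name as every row of the miRNA table for mmu-miR-21a, mmu-miR-142a, mmu-miR-146a, mmu-miR-146b, mmu-miR-150, mmu-miR-155 or mmu-miR-223 (mmu stands for mouse and is left out below), with either arm of the hairpin. All 7 names were found, in 12 rows of 778. A miRNA hairpin is cut into a 5p and a 3p arm, and usually 1 arm, the guide, is kept and pairs with messenger RNAs through its seed, bases 2 to 8. The list holds 2 kinds of miRNA. miR-142a, miR-150, miR-155 and miR-223 are made mostly by blood-forming cells. miR-142 is found in nearly all of them, miR-150 in mature lymphocytes and miR-223 in neutrophils and other myeloid cells. miR-155 is induced when lymphocytes and macrophages are activated. miR-21a, miR-146a and miR-146b are made in many cell types, epithelia included. miR-146a is switched on by NF-kB and dampens Toll-like receptor signalling through IRAK1 and TRAF6, and miR-21 is raised in inflammation and many tumours.

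The mature sequences show how the members are related and which arms were read. They are written 5′ to 3′ with the seed in capitals, and were taken from RefSeq on the build GRCm38.p6, where 11 of the 12 rows had an entry with the same letters as the deposited table.
miR-146a-5p: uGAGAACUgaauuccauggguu
miR-146b-5p: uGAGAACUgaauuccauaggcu
miR-21a-5p: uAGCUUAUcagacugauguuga
miR-223-5p: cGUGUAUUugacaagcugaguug
miR-223-3p: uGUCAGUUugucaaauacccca
miR-142a-5p: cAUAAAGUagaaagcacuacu
miR-142a-3p: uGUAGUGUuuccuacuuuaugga
miR-155-5p: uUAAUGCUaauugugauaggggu
The 2 miR-146 sequences share 1 seed, GAGAACU, which no other row of the table had. Counted from the 5′ end, they differ by G18A and U21C, miR-146a-5p first, and are identical at 20 of 22 positions. Each of them held a fractional count in 2 of 6 libraries, so some reads were split between features there, and the single values of the pair are uncertain for that reason. No other seed printed here occurred in a further row of the table.

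On GRCm38.p6, miR-146a-5p lies on the minus strand of chromosome 11 (43374435 to 43374456), inside no other annotated transcript of GENCODE M21. miR-146b-5p lies on chromosome 19 (46342790 to 46342811) in an intron of Mfsd13a. miR-21a-5p lies on chromosome 11 (86584120 to 86584141) in an exon of Vmp1, within an untranslated region. The miR-142a arms lie in an intron of the noncoding Mir142hg on the same chromosome, the 3p arm at 87756903 to 87756925. miR-155-5p lies in an exon of the noncoding Mir155hg on chromosome 16 (84714143 to 84714165). The miR-223 arms lie on the X chromosome in exons of the noncoding F630028O10Rik, the 5p arm at 96242842 to 96242864 and the 3p arm at 96242884 to 96242905. miR-150-5p and miR-150-3p are also members.

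The libraries held 1010203 to 3067208 miRNA reads. Normal replicate 3 was the deepest and stood apart in its ratio of miRNA reads to estimated tRNA fragment reads, at 2.67 against 0.367 to 0.835 in the other 5 libraries. Levels below are counts per 1000000 reads (CPM) after scaling with TMM, a method that sets the bulk of the miRNAs equal between libraries. The TMM factors themselves did not overlap between groups, at 1.24 to 1.38 in stress and 0.683 to 0.859 in normal libraries, and results that turn on this are given with both scalings. The male germ cell miRNA miR-34c-5p, used as a check of the sperm label, was present in every library at 434.3 to 622.6 CPM in stress and 298.8 to 719.4 CPM in normal libraries.

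Together the 12 rows took 2.38%, 2.29% and 2.63% of the miRNA reads in stress replicates 1 to 3, and 1.48%, 1.10% and 1.56% in normal replicates 1 to 3. The groups do not overlap in this share. It is a scaling to the miRNA total, under which the groups of 56.8% of all tested miRNAs also do not overlap, with stress higher. On the TMM scale the sums of the 12 rows overlap, at 18501, 18464 and 19085 CPM in stress and 19161, 16156 and 18192 CPM in normal replicates 1 to 3. Of the same reads, miR-146b and miR-21a made up 92.8% or more in every library, while the 4 names of blood-forming cells made up 0.926%, 1.40% and 1.86% in stress and 0.574%, 0.440% and 1.21% in normal replicates 1 to 3. In RNA from bulk sperm, fewer cells of a type and less RNA per cell cannot be told apart.

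**Figure D1:**
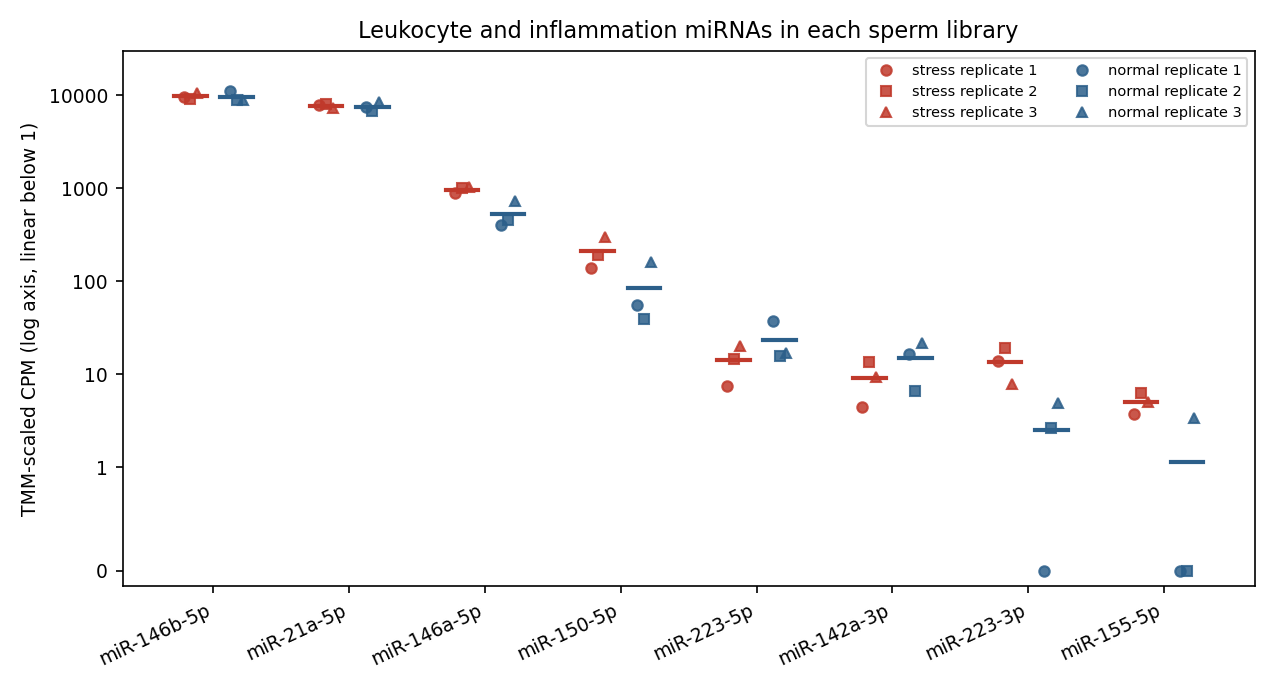
TMM-scaled CPM of the 7 tested features and miR-155-5p (log axis, linear below 1) in 3 stress libraries (red, left) and 3 normal libraries (blue, right). Each point is a library and each line a group mean; miR-146b-5p and miR-21a-5p sit near each other in both groups, while miR-146a-5p, miR-223-3p and miR-155-5p show no overlap.

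miR-146b-5p and miR-21a-5p, the abundant members, had nearly the same scaled level in stress and normal sperm. miR-146b-5p was at 9594, 9107 and 10503 CPM in the stress replicates, against 11202, 8928 and 8853 CPM in the normal replicates. It ranked 13th by mean level among the 236 miRNAs that passed the low-count filter. miR-21a-5p was at 7856, 8095 and 7202 CPM in stress, against 7441, 6701 and 8391 CPM in normal libraries. The groups overlap for both, and miR-146b-5p lay above miR-21a-5p in 6 of 6 libraries.

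Their log2 fold changes, stress over normal, were 0.01 ± 0.21 (SE) for miR-146b-5p and 0.04 ± 0.21 for miR-21a-5p in edgeR's quasi-likelihood test with Benjamini-Hochberg adjustment (adjusted p = 0.97 and 0.90, n = 3 per group). The 95% intervals of these changes were −0.45 to 0.47 and −0.42 to 0.49, so a change within those bounds is not excluded. As plain CPM of the miRNA total, without TMM, both were higher in every stress library. miR-146b-5p stood there at 12713 ± 1600 CPM (SD, n = 3) in stress and 7454 ± 1283 CPM in normal, and miR-21a-5p at 10033 ± 107.7 CPM in stress and 5846 ± 1319 CPM in normal libraries. The edgeR changes were then 0.77 and 0.78 (adjusted p = 0.017 and 0.019). With that scaling the median of all tested miRNAs was 0.76, so both moved with the bulk of the table.

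miR-146a-5p, the other miRNA with this seed, had far fewer reads than miR-146b-5p and a larger difference between the groups. It was at 879.8, 1003 and 1020 CPM in the stress replicates, against 407.6, 455.1 and 727.5 CPM in the normal replicates. All stress libraries lay above all normal ones, with normal replicate 3 the nearest. The log2 fold change was 0.87 ± 0.29 (95% interval 0.22 to 1.51), which did not pass in edgeR (adjusted p = 0.063, n = 3 per group).

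A count of the 2 miR-146 sequences against each other needs no scaling between libraries. This share was chosen after the values were seen. miR-146a-5p took 8.40%, 9.92% and 8.85% of the reads of the pair in stress replicates 1 to 3, against 3.51%, 4.85% and 7.59% in normal replicates 1 to 3. The means were 9.06% ± 0.779 (SD, n = 3) in stress and 5.32% ± 2.08 in normal libraries, 3.74 percentage points apart, without overlap (two-sided exact permutation test with n = 3 per group, p = 0.1, which is as low as 3 libraries against 3 can go). Normal replicate 3, the nearest to the stress libraries, had a 95% Wilson interval of 7.27% to 7.93%, below the interval of the lowest stress library, 7.95% to 8.87%. These intervals cover counting error only, since reads amplified by PCR are not independent molecules. Without normal replicate 3 the difference of the means was 4.87 points. As a share of all member reads, miR-146a took 5.18% ± 0.367 (SD, n = 3) in stress and 2.98% ± 0.947 in normal libraries, also without overlap (exact permutation p = 0.1, adjusted p = 0.35 over 7 names).

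**Figure D2:**
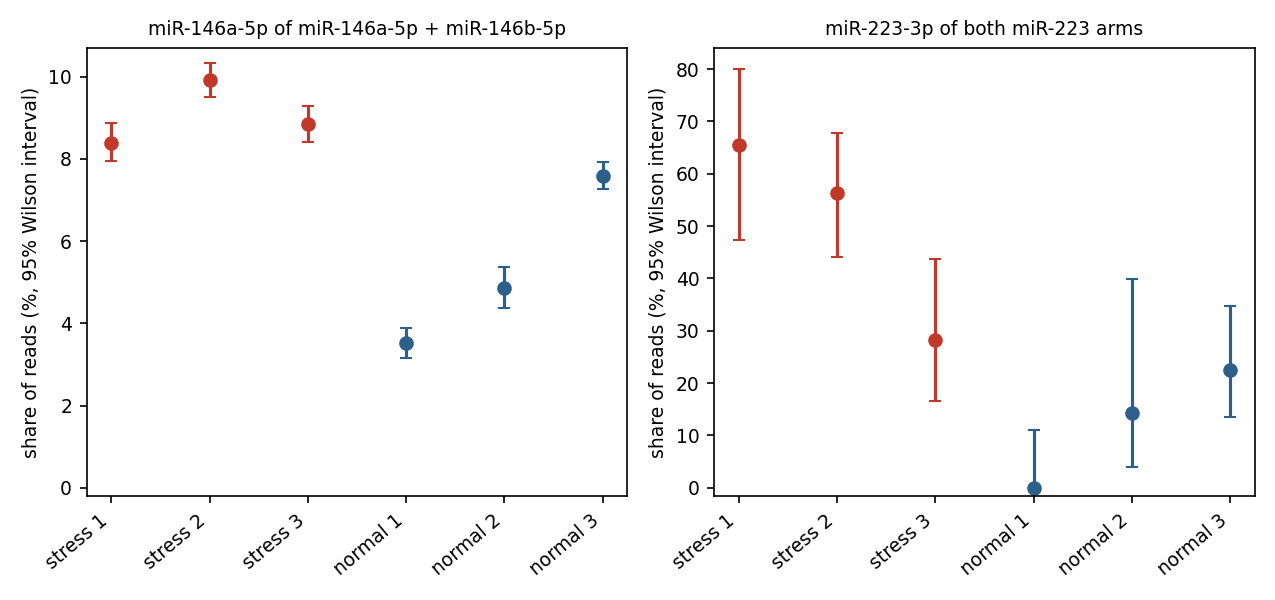
Left, miR-146a-5p as a percentage of the reads of miR-146a-5p and miR-146b-5p in each stress (red, left) and normal (blue, right) library. Right, miR-223-3p as a percentage of both miR-223 arms; bars are 95% Wilson intervals, which are narrow for the miR-146 pair and wide for miR-223, whose arms had 14 to 64 reads per library.

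Of the miRNAs of blood-forming cells, miR-150-5p was the most abundant. It was at 140.2, 193.4 and 302.0 CPM in the stress replicates, against 56.2, 39.5 and 160.8 CPM in the normal replicates. Normal replicate 3 lay above stress replicate 1, so the groups overlap. The log2 fold change was 1.27 ± 0.49 and did not pass in edgeR (adjusted p = 0.11, n = 3 per group). Normal replicate 3 weighed on this value, for without it the change was 2.17 ± 0.40 and was called (edgeR adjusted p = 0.0062). Some settings that kept normal replicate 3 also called miR-150-5p and others did not, as given below. As a share of all member reads, miR-150 took 1.15% ± 0.433 (SD, n = 3) in stress and 0.490% ± 0.384 in normal libraries, with overlap (exact permutation p = 0.2, adjusted p = 0.47 over 7 names). miR-150-3p had 1, 7 and 9 reads in stress and 0, 0 and 23 reads in normal replicates 1 to 3 and was not tested.

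The 2 arms of miR-223, a myeloid miRNA whose 3p arm is its known guide, differed in their values. miR-223-3p had 19, 36 and 11 reads in the stress replicates, or 14.1, 19.0 and 7.91 CPM. It had 0, 2 and 13 reads in the normal replicates, or 0, 2.63 and 4.93 CPM. The groups do not overlap, and the lowest stress library lay above the 3.59 CPM that a count of 0 allows in normal replicate 1. That bound does not cover normal replicates 2 and 3. Their 2 and 13 reads, like the 11 of stress replicate 3, carry counting error, so it does not settle the order of these libraries. The log2 fold change of miR-223-3p was 2.09 ± 0.68 and did not pass in edgeR (adjusted p = 0.054, n = 3 per group). This feature passed the low-count filter through the stress libraries alone. miR-223-5p had 10, 28 and 28 reads in stress, or 7.42, 14.8 and 20.1 CPM, against 31, 12 and 45 reads in normal, or 37.1, 15.8 and 17.1 CPM. Its groups overlap (−0.69 ± 0.48, edgeR adjusted p = 0.33).

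Read against its own other arm, miR-223-3p made up 65.5%, 56.2% and 28.2% of the miR-223 reads in stress replicates 1 to 3, against 0%, 14.3% and 22.4% in normal replicates 1 to 3. The 95% Wilson intervals were 47.3% to 80.1%, 44.1% to 67.7% and 16.5% to 43.8% in stress, and 0% to 11.0%, 4.01% to 39.9% and 13.6% to 34.7% in normal libraries. The shares do not overlap, but the intervals of stress replicate 3 and of normal replicates 2 and 3 do, so at this depth those libraries cannot be told apart. The means were 49.99% ± 19.4 (SD, n = 3) and 12.2% ± 11.3, with a two-sided exact permutation p of 0.1, the smallest possible with n = 3 per group. With 14 reads of both arms in normal replicate 2, miR-223 was below the minimum of 20 set for arm shares, and the test with a minimum of 10 was added after the counts were seen.

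miR-142a, found in nearly all blood-forming cells, was close to the limit of detection. miR-142a-3p had 6, 26 and 13 reads in the stress replicates, or 4.45, 13.7 and 9.35 CPM, against 14, 5 and 58 reads in the normal replicates, or 16.7, 6.58 and 22.0 CPM. The groups overlap, with a log2 fold change of −0.76 ± 0.53 (edgeR adjusted p = 0.33). miR-142a-5p had 1, 15 and 7 reads in stress and 0, 5 and 7.5 reads in normal libraries and was not tested. The tested features of blood-forming cells therefore had mixed signs, positive for miR-150-5p and miR-223-3p and negative for miR-142a-3p and miR-223-5p, and none of the 4 was called.

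miR-155-5p, the miRNA of activated immune cells, had 5, 12 and 7 reads in the stress replicates, or 3.71, 6.34 and 5.03 CPM, against 0, 0 and 9 reads in the normal replicates, or 0, 0 and 3.41 CPM. The groups do not overlap. A count of 0 allows up to 3.59 and 3.95 CPM in normal replicates 1 and 2, and stress replicate 1 lay below the second of these, so the order of the libraries was not settled at this depth. By level, miR-150-5p was followed by miR-223-5p, miR-142a-3p and miR-223-3p, whose ranges over the 6 libraries overlap. The minor arms miR-146b-3p and miR-21a-3p had 4 and 3 reads over all 6 libraries. miR-146b-5p and miR-21a-5p therefore came almost wholly from the 5p arm, with a 3p share of at most 0.0205% in any library. For the 3 arm pairs with at least 20 reads everywhere, miR-146b, miR-150 and miR-21a, the exact permutation test of the 3p share gave p = 1.0 each (n = 3 per group). The 3p arms of miR-146b and miR-21a were at 0 in 4 of 6 libraries, so the test could not show a difference for them. For miR-150 the 3p reads of the normal group all came from normal replicate 3.

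Over the list, 7 of 12 rows passed the low-count filter, 0 were called higher and 0 lower by edgeR with TMM, and 3 had an unadjusted p under 0.05 (miR-146a-5p, miR-150-5p and miR-223-3p, each higher in stress on average). Of these, miR-223-3p was tested only because it was high in stress, so its presence among the higher members, here and in the other settings, is no support for a difference of the list. Without it, 2 of 6 members had an unadjusted p under 0.05 and 1 of 6 had groups that do not overlap, with a median log2 fold change of 0.03. Over all 236 tested miRNAs 76 had an unadjusted p under 0.05 in the same edgeR test. That count takes in both directions, while these members were all higher in stress. It is therefore no like share for them, and nothing is read from the members' count. By adjusted p, 6 of the 236 were called higher, or 2.54%, and 24 lower, or 10.2%. The median log2 fold change was 0.04 over the 7 members and 0.00 over all tested miRNAs. Groups did not overlap, with stress higher, for 2 of the 7 tested members, against 18.6% of all tested miRNAs. As plain CPM of the miRNA total they were 5 of 7, against 56.8% of all. DESeq2 called those 3 members higher, among 7.23% of its miRNAs, with log2 fold changes of 0.90 (miR-146a-5p, adjusted p = 0.034), 1.32 (miR-150-5p, adjusted p = 0.038) and 2.25 (miR-223-3p, adjusted p = 0.032). edgeR without normal replicate 3 called the same 3 features, at 1.19, 2.17 and 3.38 (edgeR adjusted p = 0.020, 0.0062 and 0.045), among 8.63% of the miRNAs tested, and so did edgeR with no filter on low counts, among 2.45%. With RLE factors miR-223-3p alone was called (2.12, edgeR adjusted p = 0.048), where 6.78% of all were called higher. miR-150-5p alone was called without stress replicate 1 (1.53, edgeR adjusted p = 0.044, with 4.05% of all called higher).

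**Figure D3:**
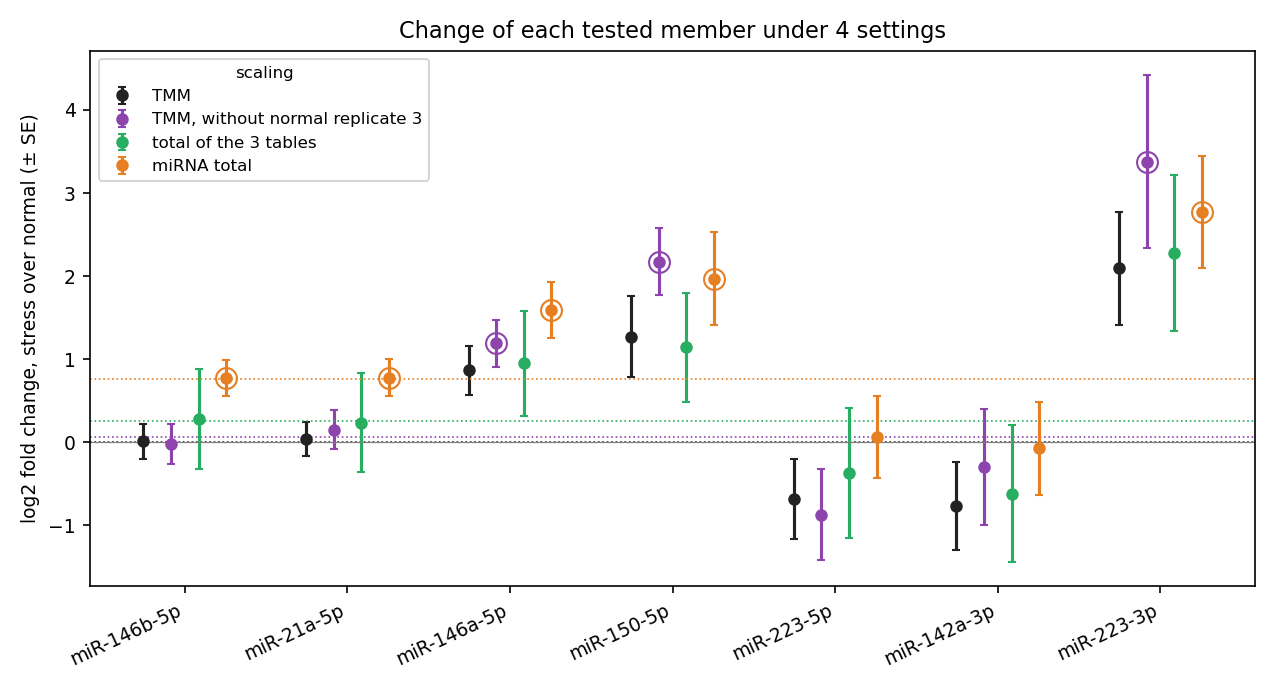
Log2 fold change, stress over normal, with SE for each tested member under 4 settings; open rings mark an adjusted p under 0.05 and dotted lines the median of all miRNAs in that setting. Scaled to the miRNA total, miR-146b-5p and miR-21a-5p lie on the dotted line at 0.76, and miR-146a-5p, miR-150-5p and miR-223-3p above it.

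Scaled to the miRNA total, edgeR called 5 of the 7 members higher and 0 lower, against 40.7% higher and 4.24% lower over all miRNAs. The members above the median of 0.76 by more than 0.5 were miR-146a-5p at 1.59, miR-150-5p at 1.97 and miR-223-3p at 2.77, while miR-223-5p stood at 0.06 and miR-142a-3p at −0.07. Scaled to the total of the miRNA, piRNA and tRNA fragment tables, no member was called (0 of 7, with 1.19% higher and 1.19% lower over all). There miR-146a-5p was at 0.95 ± 0.63, miR-150-5p at 1.14 ± 0.65 and miR-223-3p at 2.28 ± 0.94 (edgeR adjusted p = 0.75, 0.68 and 0.29).

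The patterns most like that of each member were sought among the other 229 tested miRNAs, as the root mean square difference of mean-centred log2 CPM over the 6 libraries. For miR-146b-5p the nearest were miR-200b-3p (0.11), miR-26a-5p (0.13) and miR-30d-5p (0.15), against a median of 0.49. For miR-146a-5p they were miR-93-5p (0.10), miR-27b-3p (0.17) and miR-205-5p (0.18), against a median of 0.65. For miR-223-3p they were miR-23a-3p (0.45), miR-374b-5p (0.47) and miR-199b-5p (0.57), against a median of 1.31. These are the most abundant member and both tested members without overlap between groups. Of the others, miR-21a-5p was nearest to miR-423-3p (0.14), miR-150-5p to the joint row of miR-669a-3p and miR-669o-3p (0.31), miR-223-5p to miR-330-3p (0.31) and miR-142a-3p to miR-9-3p (0.45). The measure includes the difference between the groups and was not tested.

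Marker miRNAs of other cells were summed on the TMM scale beside the members. The 13 epithelial features summed to 25171, 23705 and 22274 CPM in the stress and 22170, 18321 and 20646 CPM in the normal replicates. The 11 stromal, smooth muscle and endothelial features summed to 7244 to 7999 CPM in stress and 3473 to 6746 CPM in normal libraries. Both sums lay higher in stress without overlap, and the sum of the 19 male germ cell features lay lower, at 4994 to 6739 CPM in stress and 7668 to 12718 CPM in normal libraries. By feature the signs were mixed in the epithelial and germ cell lists, while all 8 tested stromal features were positive. miR-200b-3p alone held 43.6% to 53.5% of the epithelial sum and miR-143-3p 82.3% to 91.0% of the stromal sum. The groups overlap for each of them. edgeR called 0 of 9 tested epithelial features, 7 of them with a positive log2 fold change, and 2 of 8 stromal ones as higher, miR-145a-5p (1.96, edgeR adjusted p = 0.0072) and the joint row of miR-199a-3p and miR-199b-3p (1.29, edgeR adjusted p = 0.017). Of 13 tested germ cell features 2 were called lower, miR-871-3p (−1.40, edgeR adjusted p = 0.016) and the joint row of miR-465a-3p, miR-465b-3p and miR-465c-3p (−1.31, edgeR adjusted p = 0.044), and neither was called when scaled to the miRNA total. Both stromal ones were called there (edgeR adjusted p = 0.0016 and 0.0054). Scaled to the total of the 3 tables, neither stromal one was called (2.31 and 1.36, edgeR adjusted p = 0.059 and 0.43). Nor was miR-871-3p or the miR-465 row (−0.98 and −0.93, edgeR adjusted p = 0.73 and 0.78). With 1 library left out, miR-145a-5p was still called each time. The miR-199 row lost its call without stress replicate 3 (edgeR adjusted p = 0.053), miR-871-3p without stress replicate 2 or 3 (edgeR adjusted p = 0.059 and 0.053), and the miR-465 row without stress replicate 2 or 3 or normal replicate 1 or 2 (edgeR adjusted p = 0.13, 0.14, 0.11 and 0.065). Another 5 of the 13 were positive, and miR-881-3p alone held 42.2% to 53.6% of the germ cell sum. These features were picked out after their values were seen. The sums of the 6 red blood cell features overlapped between groups, at 634.2, 374.2 and 194.9 CPM in stress and 1317, 1276 and 396.4 CPM in the normal replicates. The 7 rows of miR-142a, miR-150, miR-155 and miR-223 summed to 171.4, 259.0 and 356.0 CPM in stress and 110.0, 71.0 and 220.0 CPM in normal libraries, 52.6-fold or more below the sum of the 5 rows of miR-21a, miR-146a and miR-146b (16085 to 19051 CPM). Scaled to the miRNA total instead, the germ cell sums overlapped between groups, while those of the blood-forming rows no longer did and lay higher in stress. The epithelial and stromal sums and that of miR-21a, miR-146a and miR-146b also lay higher there without overlap. So did 56.8% of all tested miRNAs, so this is not particular to the blood-forming rows. The part of epithelial, stromal or blood RNA in the members' values was not tested.

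**Figure D4:**
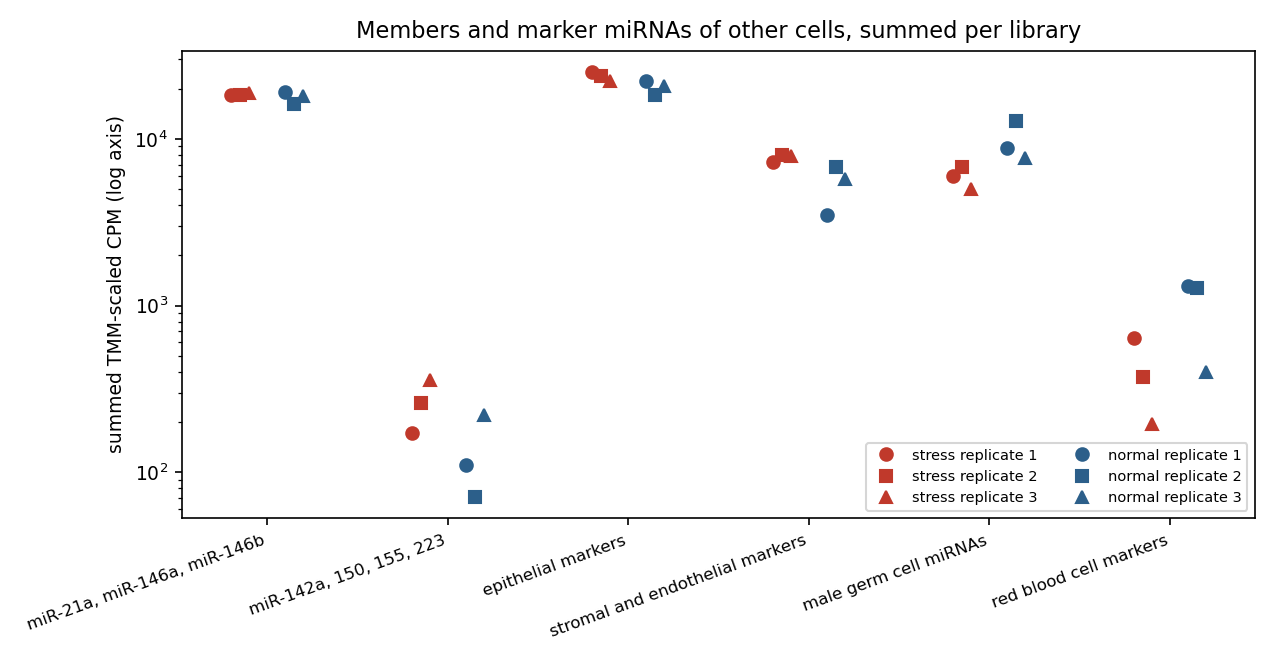
Summed TMM-scaled CPM (log axis) of the 2 kinds of member and of 4 sets of marker miRNAs in each stress (red, left) and normal (blue, right) library. The miRNAs of blood-forming cells are the lowest set in every library but stress replicate 3, with normal replicate 3 above the other 2 normal ones.

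A further list held 25 names of other miRNAs known from immune cells or inflammatory signalling, with 48 rows, 24 of them tested. In edgeR, with n = 3 per group, 2 of the 24 fell, 0 rose and 22 did not pass, with a median log2 fold change of 0.19. The 8.33% called lower is near the 10.2% of all tested miRNAs, and 2.54% of all were called higher. miR-342-5p fell to 26.8 CPM on average in stress, against 91.5 CPM in normal libraries (−1.76 ± 0.41, edgeR adjusted p = 0.018). miR-125b-1-3p fell to 49.3 CPM in stress, against 103.7 CPM in normal libraries (−1.07 ± 0.27, edgeR adjusted p = 0.024). Scaled to the miRNA total they stood at −1.01 and −0.31 and neither was called (edgeR adjusted p = 0.065 and 0.37), nor was either with the total of the 3 tables (−1.38 and −0.83, edgeR adjusted p = 0.49 and 0.78). The call of miR-342-5p was lost without stress replicate 3 or normal replicate 1 (edgeR adjusted p = 0.053 and 0.051), and that of miR-125b-1-3p without stress replicate 1, 2 or 3 (edgeR adjusted p = 0.053, 0.0997 and 0.10) and with no filter on low counts (edgeR adjusted p = 0.059). The other arm of the first, miR-342-3p, was at 0.80 ± 0.41 and did not pass (edgeR adjusted p = 0.19). By mean level over the 6 libraries the most abundant of the list were miR-125a-5p (2069 CPM in stress, 3757 CPM in normal), miR-125b-5p (2740 CPM in stress, 2672 CPM in normal), miR-222-3p (478.8 CPM in stress, 912.5 CPM in normal) and miR-24-3p (550.7 CPM in stress, 466.6 CPM in normal), and none of them passed. Of these, miR-222-3p lay lower in every stress library (−0.93 ± 0.28, edgeR adjusted p = 0.051). It was called with DESeq2 (−0.89, adjusted p = 0.032), yet stood at −0.15 scaled to the miRNA total (edgeR adjusted p = 0.69). It was also called without normal replicate 3 (−1.08, edgeR adjusted p = 0.026), and miR-125a-5p without stress replicate 1 (−1.19, edgeR adjusted p = 0.041).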

How the data were processed

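TRIzol extraction and an Illumina TruSeq RNA kit were used, per the labels' protocols. Bowtie is named in the submitters' processing notes. The genome build is not given in the sources used here, nor are the miRNA annotation, filters and counting rule. Expected counts per mature miRNA are the unit of the miRNA table as deposited, and 92.0% of them were whole within 0.001. The piRNA and tRNA fragment tables hold RPM that the authors scaled within each table. They served only to estimate total reads, from the smallest piRNA value and from the step of low tRNA fragment values, the latter an estimate.

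Groups came from the disease-state labels, and the labels name no batch. Counts were rounded and all miRNAs were fitted with glmQLFit and glmQLFTest of edgeR 4.0.16 (R 4.3.3) after TMM scaling and filterByExpr at a minimum count of 10. The p-values were adjusted over all tested miRNAs, with a threshold of 0.05. The SE is the log2 fold change divided by the square root of F, taken as positive. Alternatives were 2 total scalings, RLE, DESeq2 1.42.0, 2 filters, a replicate block and leaving out each library. On simulated data with known changes the fit was tested first. Shares were compared with exact permutation tests in scipy 1.17.1, over 3 arm pairs and 7 names. Every member row is given. Of the other immune list, the called and the 4 most abundant by mean over the 6 libraries are named. Intervals are 95% Wilson intervals, and a count of 0 allows 3 reads. The members, lists and some tests were chosen with earlier results of these data known.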

Additional observations from a re-analysis of the deposited data

How the results depend on the processing

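miRNAs called higher numbered 6 and called lower 24 with TMM. The counts were 96 and 10 scaled to the miRNA total, 3 and 3 scaled to the total of the 3 tables, 16 and 28 with RLE, 17 and 30 with DESeq2, 19 and 30 with no filter and 12 and 27 with a minimum count of 30. Leaving out 1 library gave 4 to 22 higher and 13 to 33 lower, with 22 higher without normal replicate 3, 10 higher without stress replicate 1, and 14 and 13 lower without stress replicates 2 and 3. Members called higher numbered 0 with TMM, with the total of the 3 tables and with a minimum count of 30, which left 4 of the 7 to test, 5 with the miRNA total, 3 with DESeq2 or no filter, 1 with RLE, and 0 to 3 when a library was left out. None was called lower in any of these. With the replicate number as a block 1 member (miR-150-5p, 1.47, adjusted p = 0.037 in edgeR) and 7 miRNAs were called higher and 21 lower, and miR-125b-1-3p was not called (−1.08, adjusted p = 0.054 in edgeR). Deviations of same-numbered libraries from their group means correlated at 0.11, −0.21 and 0.12, and not every library was closest to its own number. With 3 libraries per group these weak values cannot decide whether the numbers pair the libraries.

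Changes near 0 turned sign. With a library left out, the log2 change ran from −0.049 to 0.11 for miR-146b-5p, from −0.018 to 0.15 for miR-21a-5p and from −0.14 to 0.23 for miR-125b-5p. Scaled to the miRNA total, miR-223-5p was at 0.060. In percentage points, the range was −0.0014 to 0.0088 for the miR-146b-3p arm, −1.07 to 1.50 for miR-150-3p and −0.0065 to 0.0067 for miR-21a-3p. For shares of the member reads it was −4.79 to 0.11 for miR-146b, −2.45 to 1.19 for miR-21a and −0.011 to 0.031 for miR-223. The cause of these was not tested. The miR-146a share of the pair ran from 2.83 to 4.87 points and the miR-223-3p arm share from 29.99 to 48.7 points. The groups do not overlap in either share, so leaving out a library could not turn its sign. Depth limits miR-142a, miR-155 and miR-223, with at most 58 reads of an arm in a library.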
